A study of Capra hircus with 12 samples.

Results

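Among the 24116 loci listed for black goat (Capra hircus) testis, 558 (2.31%) had a postpuberty level that stood clearly above the level at puberty and above every younger value. These 558 loci, called members below, were chosen by their own values in the same libraries described here. A member has a StringTie identifier of the form MSTRG.n with n under 405000 and a mean over the 11 libraries under 20 FPKM, a read count scaled by the length of the locus and by the total of the library. Its lowest postpuberty value is at least 1 FPKM, at least 1.5 times the highest puberty value and above all neonatal and prepuberty values. It also has a value above 0 in at least 1 of the 6 younger libraries. The contrast of postpuberty with puberty, and that of postpuberty with the younger ages, were thus used in the selection and are described without a test on the members.

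The testes came from goats labelled wild type at 4 ages: neonatal (titles D3), prepuberty (D30), puberty (D90) and postpuberty (D180). Total RNA of the tissue went into libraries made with an lncRNA preparation kit, of which 3 neonatal, 3 prepuberty, 2 puberty and 3 postpuberty ones are described here. Puberty replicate 1 was not analysed here. Nothing in the labels says whether replicates are separate animals, so the p-values below measure only the spread between these libraries.

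Before puberty the seminiferous tubules hold Sertoli cells, which support the germ line, and early germ cells, which come to include spermatogonia, the stem and progenitor cells. At puberty germ cells enter meiosis as spermatocytes and then become haploid spermatids, and in the postpubertal testis these later cells make up much of the tissue and transcribe many loci, coding and non-coding, that are quiet elsewhere. The identifiers carry no gene names. None of them matched the goat gene table of assembly ARS1.2 (0 of 24116), so the members have no symbol, biotype or position here and the markers of testis cell types could not be looked up. In whole tissue, fewer cells of a type and less RNA per cell cannot be told apart.

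The library totals implied by the steps between low FPKM values were between 19128357 reads (neonatal replicate 3) and 35614224 reads (puberty replicate 2). Reads per locus were recovered for 24115 loci as the smallest matching whole numbers, and can be a fraction of the true counts. Over the 12954 loci that reached 1 FPKM in at least 2 libraries, replicates of the same age correlated at 0.89 (puberty) to 0.96 (prepuberty) by Pearson's r of log2(FPKM + 1), which is across loci and not across independent replicates. Among the prepuberty libraries, replicate 1 detected the most members (435, against 398 and 384 in replicates 2 and 3) and held the highest of the 3 prepuberty values for 249 members; the part of this in the younger values was not tested. Without that library, 129 members rose by the puberty test described further on, in place of 131, and 3082 tested loci in place of 3067.

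Taken as a group, the members were low in the young testis, intermediate at puberty and highest afterwards. Their summed level was 139 ± 14.9 FPKM (SD, n = 3) in the neonatal testis and 104 ± 8.25 FPKM (n = 3) before puberty. It was 629 ± 43.5 FPKM (n = 2) at puberty and 1546 ± 116 FPKM (n = 3) in the oldest group. Their reads made up 0.110% ± 0.0122, 0.0839% ± 0.00721, 0.432% ± 0.0210 and 0.981% ± 0.0893 of the library totals in the same order. The median member stood at 0.0352, 0.0792 and 0.0572 FPKM in neonatal replicates 1 to 3 and at 0.0464, 0.0441 and 0.0286 in the prepuberty libraries. It stood at 0.833 and 0.762 in puberty replicates 2 and 3, and at 1.87, 1.95 and 2.104 in postpuberty replicates 1 to 3. The younger libraries thus lay far below both older ages at the median.

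**Figure D1:**
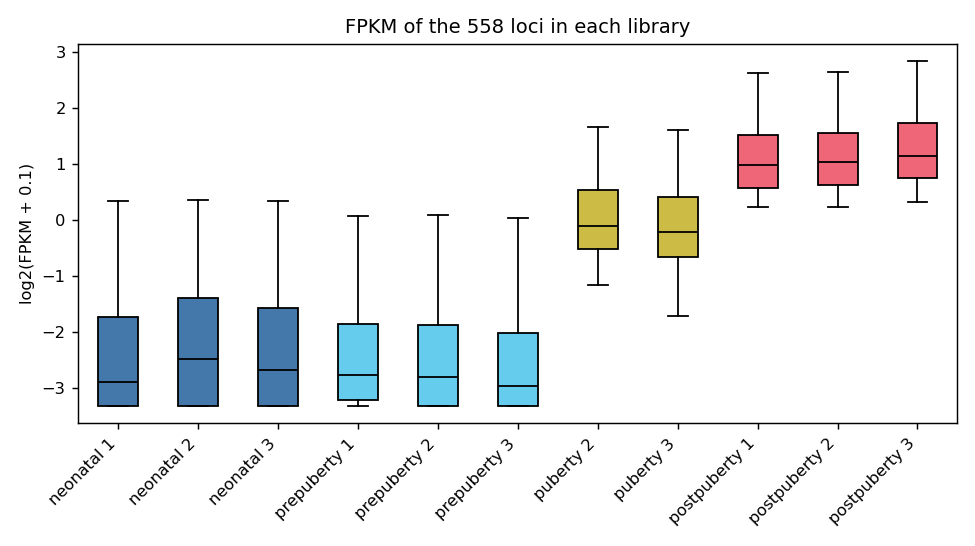
Box plots of log2(FPKM + 0.1) for the 558 members in each of the 11 libraries, coloured by age. Boxes span the quartiles, the line is the median and whiskers reach the lowest and highest 5 percent; the medians are below 0.08 FPKM in all 6 younger libraries, near 0.8 in the puberty libraries and 1.87 to 2.104 in the postpuberty libraries, where the rule sets a floor of 1 FPKM.

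The members covered a wide range of levels at their peak. The median of the postpuberty means was 2.01 FPKM in members and 1.246 FPKM over tested loci, where the rule sets a floor for members. The postpuberty mean was under 2 FPKM for 274 of the 558, at least 5 FPKM for 50 and at least 10 FPKM for 13. The median member rested on 784 reads over the 3 postpuberty libraries and 233.5 over the 2 puberty libraries. Over the 6 younger libraries together the median was only 23 reads, and 186 members had fewer than 10. A read was present in all 6 younger libraries for 266 members and in a single one for 78.

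The ratio of the postpuberty mean to the puberty mean had a median of 2.38 over the members, with quartiles of 2.07 and 2.95, and it was 1.32 over all tested loci with a puberty value above 0. Among members the ratio was at least 2 for 456, at least 5 for 23 and at least 10 for 5. The part of the difference between the prepuberty and postpuberty means that was already present at puberty had a median of 37.0% (quartiles 27.8% and 44.3%), a share that the ratio in the rule caps. Taking each postpuberty library alone, the median ratio was 2.21, 2.29 and 2.59 for replicates 1 to 3. Replicate 3 held the highest of the 3 postpuberty values for 320 members and replicate 1 the lowest for 258.

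The 6 members with the highest postpuberty means differed in how steady they were between libraries and in what preceded the rise. MSTRG.266231 has the most reads of them, 89684 over the postpuberty libraries, on an implied length of 43597 bases. It stood at 0.00447, 0.00584 and 0.00480 FPKM in the neonatal libraries and at 0.0308, 0.00180 and 0.0137 in the prepuberty libraries. It then stood at 8.33 and 8.21 FPKM at puberty and at 21.2, 21.5 and 23.6 in postpuberty replicates 1 to 3. The older libraries of this locus agreed closely within each age and the ages did not overlap, with means of 8.27 ± 0.0860 (SD, n = 2) and 22.1 ± 1.32 (n = 3).

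MSTRG.145862 (implied length 5019 bases) was likewise near absent in the young testis, at 0 to 0.0818 FPKM in the 6 younger libraries. It measured 9.20 and 8.30 FPKM at puberty and 24.4, 20.97 and 14.3 after it. Its postpuberty libraries spread more than those of MSTRG.266231, and the lowest of them lay 1.56 times above the higher puberty library. MSTRG.262417 and MSTRG.357059 were expressed at all ages. MSTRG.262417 stood at 0.939, 2.04 and 1.24 FPKM in the neonatal libraries, at 1.08, 0.523 and 0.999 before puberty, at 9.49 and 8.37 at puberty and at 18.2, 20.2 and 24.7 afterwards. MSTRG.357059 stood at 0.924, 1.21 and 1.12, then 0.775, 1.07 and 1.38, then 9.84 and 5.58, and finally 23.7, 16.9 and 22.2 FPKM in the same order. Both were near 1 FPKM at either young age, with 93 and 143 prepuberty reads behind those levels.

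The remaining members of this set were uneven between postpuberty libraries. MSTRG.283079 (implied length 4392 bases) measured 39.6 and 28.1 FPKM in postpuberty replicates 1 and 3 but 1.92 in replicate 2, on 6041, 3736 and 237 reads. At puberty it stood at 0.786 and 0.587 FPKM, and the younger libraries lay at 0 to 0.116. Its mean of 23.2 ± 19.3 (SD, n = 3) therefore describes no single library. MSTRG.98741, the member with the highest mean, has an implied length of only 213 bases. It measured 17.8, 34.7 and 25.4 FPKM after puberty on 504 reads in all, against 11.6 and 6.25 at puberty. The younger libraries of this locus stood at 1.83, 0.957 and 0 FPKM in neonatal and 0.175, 0.368 and 0.351 in prepuberty testes.

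**Figure D2:**
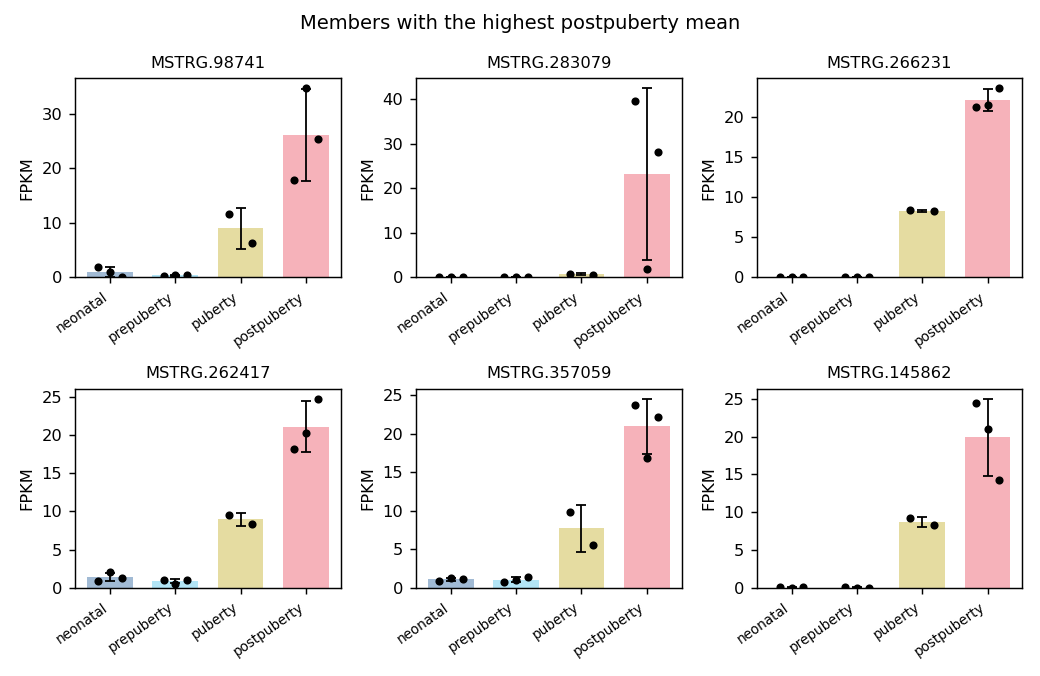
FPKM by age for the 6 members with the highest postpuberty mean; bars are means, error bars are SD and points are libraries (n = 3, 3, 2 and 3). MSTRG.266231 shows 3 close postpuberty libraries at 21.2 to 23.6, whereas MSTRG.283079 has 1 postpuberty library at 1.92 and the others at 28.1 and 39.6.

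A few members stood far lower at puberty than after it. The 6 with the largest ratio of the lowest postpuberty to the highest puberty value were MSTRG.223626, MSTRG.220267, MSTRG.261843, MSTRG.99901, MSTRG.119438 and MSTRG.118105. MSTRG.223626 was the only member with no read in either puberty library; it had 3 reads in the 6 younger libraries and 1.64, 1.69 and 2.41 FPKM (224 reads) after puberty. Setting puberty at 3 reads in the 2 libraries together, the postpuberty mean was at least 56.5-fold higher. MSTRG.220267 had 1 puberty read and 3 prepuberty reads, and stood at 18.1, 5.26 and 7.72 FPKM on 404, 95 and 150 reads in postpuberty replicates 1 to 3. In both loci the postpuberty libraries lay far above all others, and in MSTRG.220267 they differed widely among themselves.

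MSTRG.261843 (implied length 12076 bases) had 33 puberty reads, at 0.0465 and 0.0312 FPKM, and 2960 reads after puberty, at 1.64, 4.32 and 2.20 FPKM. Its postpuberty mean was 70.1 times its puberty mean. MSTRG.99901 stood at 1.39, 1.37 and 1.15 FPKM after puberty and at 0.0541 and 0.167 at puberty, and had been at 0.188, 0.196 and 0.101 in the neonatal libraries. MSTRG.119438 measured 0.0792 and 0.184 FPKM at puberty and 1.08, 1.08 and 1.19 after it. Both of these loci were steady between postpuberty libraries, but MSTRG.99901 had 63 postpuberty reads and 4 puberty reads, so its ratio is loosely fixed. MSTRG.118105 had 55 postpuberty reads at 2.87, 1.62 and 2.74 FPKM and 5 puberty reads, and 1 neonatal library stood at 1.21 FPKM on 6 reads.

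**Figure D3:**
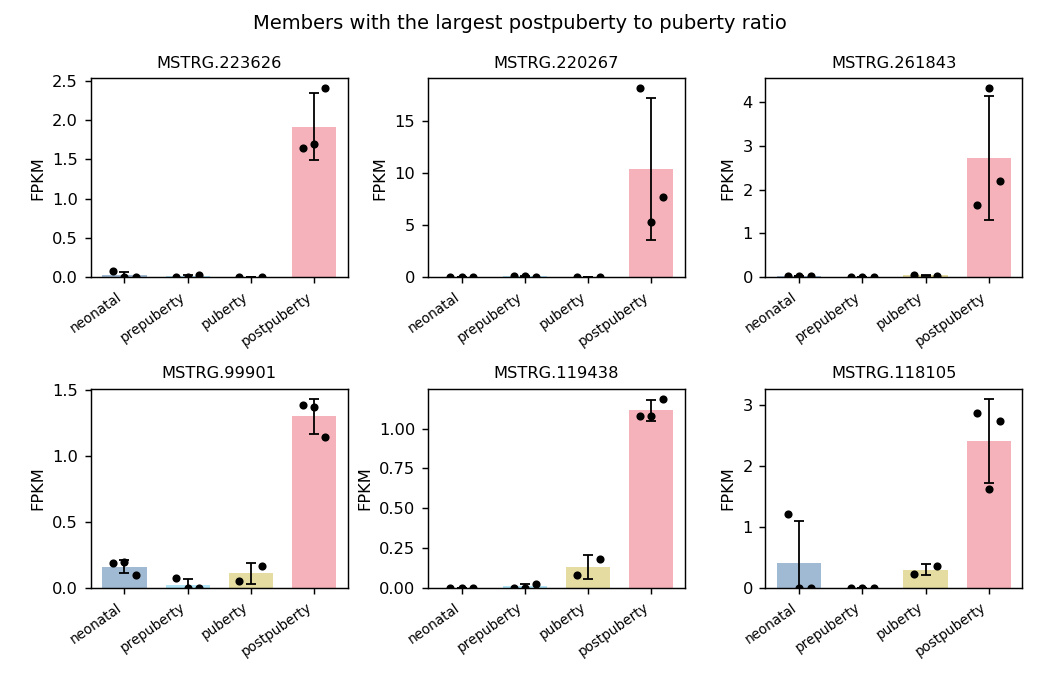
FPKM by age for the 6 members whose lowest postpuberty value exceeds the highest puberty value by the largest factor; bars are means, error bars are SD and points are libraries. The highest puberty value is 0.361, in MSTRG.118105, and MSTRG.220267 ranges from 5.26 to 18.1 FPKM between postpuberty libraries.

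The edge of the selection divides loci that hardly differ. The members just inside the ratio of 1.5 were MSTRG.320910, MSTRG.264941 and MSTRG.87767, with lowest postpuberty values of 1.42, 2.56 and 1.53 FPKM against highest puberty values of 0.947, 1.70 and 1.02. Just outside it lay MSTRG.287021 (2.76 against 1.84 FPKM), MSTRG.161890 (1.23 against 0.822) and MSTRG.195376 (1.01 against 0.674). Another 2846 loci met every part of the rule but the ratio, 579 failed only the floor of 1 FPKM, 134 had no younger read and 64 failed only the comparison with the younger values. The mean limit alone kept out 1 locus. With a single puberty library in the rule the selection would hold 1223 loci (without puberty replicate 2) or 1040 (without puberty replicate 3). It would hold 968, 964 and 692 without postpuberty replicates 1, 2 and 3. All 558 members are kept each time, since fewer libraries at these ages make the ratio easier to meet. After median of ratios scaling, which equalizes the typical ratio between libraries, 250 loci met the rule, 214 of them members, and the median ratio over the 558 members was 1.88.

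Puberty against prepuberty asks how far the members had moved when the testis entered puberty. The rule does not compare these ages, although it caps both below the postpuberty values. In 453 of the 558 members (81.2%) both puberty libraries lay above all 6 younger libraries, as they did in 44.9% of the 12954 tested loci. In 2 members both lay below all 6, as in 33.1% of tested loci, and in the remaining 103 the ages overlapped. Among the 2846 loci that met every part of the rule but the ratio, 92.3% had both puberty libraries above all younger ones. Membership requires a postpuberty level above all younger ones, which loci that fell with age cannot meet, so the tested loci as a whole are an uneven yardstick, and the ratio in turn keeps out loci with a high puberty level.

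The test of this step depended on how low values were weighted. Values were compared as log2(FPKM + 1) with limma across all loci, and a locus was called at an adjusted p under 0.05 and a change of at least 1. All 558 members entered this test, each through its postpuberty values, which the rule sets above the filter. By this test 131 members (23.5%) rose and 0 fell, against 23.7% and 13% of tested loci, so the share that rose was at the background. A change of 1 on this scale cannot be reached from 0 without a puberty value of at least 1 FPKM, and 362 of the members had a lower puberty mean. All 131 calls were among the 196 members above it. With a pseudocount of 0.1 in place of 1, 469 members (84.1%) rose against 45% of tested loci, and with voom (limma weights for counts) on the recovered reads 470 (84.2%) rose against 45.3%. Among the loci that met the rule without the ratio, 64.4%, 91.2% and 91.8% rose in the same 3 tests. At an unadjusted p under 0.05 on the log2(FPKM + 1) scale, 466 members (83.5%) were higher at puberty and 2 (0.358%) lower, against 44.99% and 32.9% of tested loci.

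**Figure D4:**
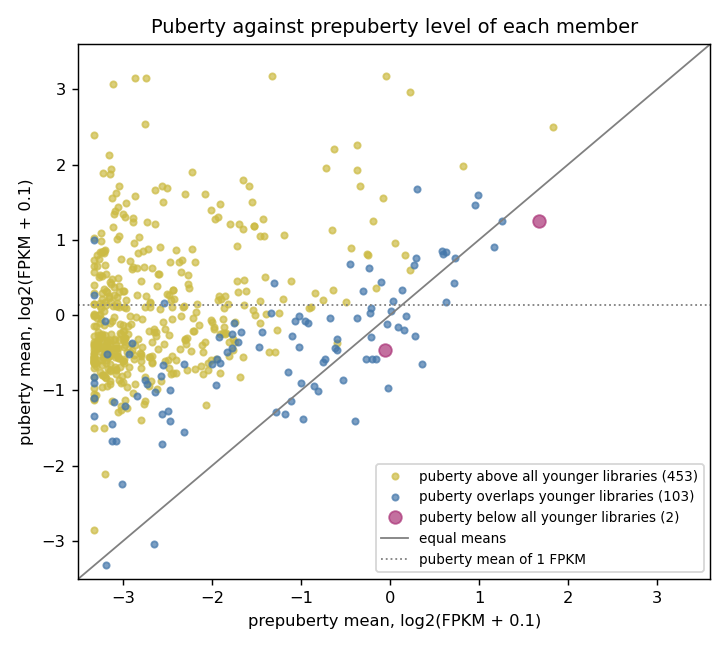
Prepuberty mean against puberty mean of each member, both as log2(FPKM + 0.1); colour gives the place of the 2 puberty libraries relative to the 6 younger ones, the solid line marks equal means and the dotted line a puberty mean of 1 FPKM. The 453 members with puberty above all younger libraries lie over the line of equal means, and 362 members lie under the dotted line.

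The 5 largest called rises at puberty on the log2(FPKM + 1) scale were those of MSTRG.145862, MSTRG.205196, MSTRG.266231, MSTRG.98741 and MSTRG.373652. For MSTRG.145862 the change was 3.23 ± 0.18 (SE, limma adjusted p = 1.34e-07) and for MSTRG.266231 it was 3.19 ± 0.11 (limma adjusted p = 2.48e-09). MSTRG.205196 had reads in 1 younger library only (0.148 FPKM in prepuberty replicate 1, 3 reads) and stood at 7.24 and 10.3 FPKM at puberty and 18.6, 22.4 and 15.9 after it, a change at puberty of 3.20 ± 0.17 (limma adjusted p = 8.36e-08). MSTRG.373652 (implied length 8564 bases) stood at 0.0523, 0.0458 and 0.0481 FPKM in prepuberty, 5.45 and 5.93 in puberty and 11.5, 11.8 and 9.96 in the oldest libraries. Its change at puberty was 2.67 ± 0.11 (limma adjusted p = 1.75e-08), and the libraries of each age lay close together. The postpuberty means of the 5 loci were 1.95 to 2.91 times those at puberty.

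Other members had nearly the same level at puberty as before it. Among the 23 members with a prepuberty mean of at least 1 FPKM, the 3 with the smallest change at puberty were MSTRG.376170, MSTRG.110787 and MSTRG.132447. MSTRG.376170, with an implied length of 70512 bases and 11290 puberty reads, stood at 2.38, 2.55 and 3.09 FPKM in neonatal and 2.44, 2.31 and 2.12 in prepuberty libraries. It stood at 2.33 and 2.23 FPKM at puberty and at 3.602, 3.80 and 4.31 after it. The change at puberty was -0.0023 ± 0.13 on the log2 scale (SE, limma adjusted p = 0.988), and the puberty libraries lay within the prepuberty range. MSTRG.110787 (implied length 23617 bases) measured 1.23, 1.99 and 1.47 FPKM in prepuberty, 1.85 and 1.33 in puberty and 3.09, 3.00 and 3.48 in postpuberty libraries, with a change at puberty of 0.02 ± 0.17 (limma adjusted p = 0.922). MSTRG.132447 measured 0.999, 1.101 and 1.01 FPKM, then 1.09 and 0.694, then 1.74, 1.64 and 1.99, with a change at puberty of -0.11 ± 0.15 (limma adjusted p = 0.507). MSTRG.239051, the member with the highest younger mean and named after its values were seen, stood at 3.47 ± 0.409 FPKM (SD, n = 3) before, 5.54 ± 1.39 (n = 2) at and 11.3 ± 0.995 (n = 3) after puberty, with a change at puberty of 0.54 ± 0.16 (SE, limma adjusted p = 0.00894), below the size required for a call. Unlike the 3 loci before it, its puberty libraries lay above all younger ones.

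Of all members, 27 had a puberty mean under the prepuberty mean, and 23 of these had one under the neonatal mean as well. The 2 members whose puberty libraries lay below all younger ones, named after their values were seen, were MSTRG.330514 and MSTRG.118521. MSTRG.330514 stood at 3.11, 2.81 and 3.17 FPKM in the neonatal libraries, at 3.72, 2.87 and 2.69 before puberty, at 2.67 and 1.90 at puberty and at 5.30, 4.71 and 8.76 afterwards. MSTRG.118521 stood at 0.804, 1.04 and 0.935, then 0.898, 0.845 and 0.832, then 0.573 and 0.677, and finally 1.20, 1.13 and 1.42 FPKM. The changes at puberty were -0.32 ± 0.22 and -0.19 ± 0.11 (SE; limma adjusted p = 0.201 and 0.133), so neither dip passed the test. MSTRG.199422, also singled out after its values were seen, had the only lower puberty level with an adjusted p under 0.05, at 1.58, 0.832 and 1.15 FPKM in prepuberty and 0.662 and 0.410 in puberty libraries. Its change was -0.50 ± 0.20 (limma adjusted p = 0.0416), below the size required for a call, on 40 prepuberty and 16 puberty reads. With a pseudocount of 0.1 its change was -1.005 and was called (limma adjusted p = 0.0222).

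**Figure D5:**
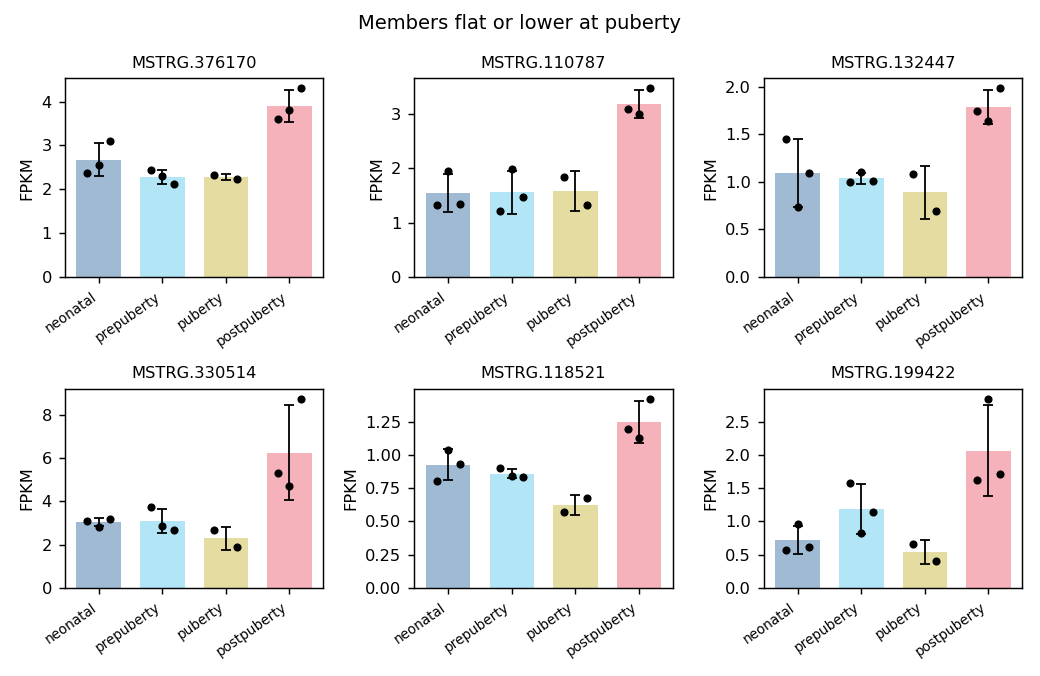
FPKM by age for 3 members with the smallest change at puberty (MSTRG.376170, MSTRG.110787 and MSTRG.132447) and 3 with a lower puberty level (MSTRG.330514, MSTRG.118521 and MSTRG.199422); bars are means, error bars are SD and points are libraries. In each panel the postpuberty libraries lie above all others, and the puberty libraries lie within or below the younger ones.

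Of the 105 members whose puberty libraries were not above all younger ones, 88 had at least 10 reads over the 6 younger libraries and the others had fewer. Across the 103 that overlapped, the median of the means was 0.594 FPKM in the neonatal libraries, 0.365 before puberty, 0.640 at puberty and 1.92 afterwards. In the 453 others it was 0.0444, 0.0289, 0.807 and 2.03 FPKM. The postpuberty and puberty medians of the 2 groups were thus close, and the younger ones differed, which is what the split itself uses. In 31 of the 105, a single younger library reached the lower puberty value.

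Prepuberty against neonatal asks whether the members changed before puberty. The rule does not compare these ages either. By limma on the log2(FPKM + 1) scale, 0 members rose and 0 fell, against 0.826% and 1.24% of tested loci. At an unadjusted p under 0.05, 5 members (0.896%) were higher and 27 (4.84%) lower in prepuberty, against 5.48% and 17.0% of tested loci. With a pseudocount of 0.1, 5 members rose and 13 fell, against 1.6% and 3.35% of tested loci, and with voom on recovered reads 3 rose and 14 fell, against 1.34% and 3.02%. The 3 prepuberty libraries all lay below the 3 neonatal ones in 66 members (11.8%), as in 17.4% of tested loci, and all above them in 13 (2.33%), as in 6.23%. Members were selected through their postpuberty values, and 39 of them had a neonatal or prepuberty mean of at least 1 FPKM. A change of 1 on the log2(FPKM + 1) scale was thus out of reach for the others, and nothing is read from the counts of 0. The mean was lower in prepuberty for 367 members and higher for 191, a count not made over all tested loci. The tested loci leaned the same way. The median ratio of the prepuberty to the neonatal mean was 0.669 in members and 0.771 in tested loci, where the neonatal mean was above 0. The median change on the log2(FPKM + 1) scale was -0.022 in members and -0.030 in tested loci.

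Of all members, 8 were lower and 1 higher in prepuberty at an adjusted p under 0.05 without reaching the size of a call, or 1.43% and 0.179%, against 7.496% and 2.53% of tested loci at any size. The largest of the lower ones was MSTRG.59179, at 1.05, 1.06 and 0.992 FPKM (139 reads) in neonatal and 0.132, 0.0692 and 0.0165 (13 reads) in prepuberty libraries, a change of -0.92 ± 0.16 on the log2 scale (SE, limma adjusted p = 0.00598). It stood at 1.47 and 0.562 FPKM at puberty and 2.97, 3.14 and 2.43 after it, so the puberty libraries lay around the neonatal level. MSTRG.126611 changed by -0.89 ± 0.17 (limma adjusted p = 0.010), from 1.57, 2.24 and 2.46 FPKM to 0.493, 0.978 and 0.549, and then stood at 4.58 and 4.81 at puberty and 8.59, 12.2 and 11.9 after it. The single member higher in prepuberty at that level was MSTRG.64437, at 0.213, 0 and 0.229 FPKM in neonatal and 0.816, 0.772 and 0.491 in prepuberty libraries, with a change of 0.56 ± 0.16 (limma adjusted p = 0.0495). All 3 changes were smaller than the size required for a call, and these loci were singled out after their values were seen. With a pseudocount of 0.1 all 3 were called, with changes of -2.77, -1.53 and 1.84.

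The implied length of a member, taken from the steps of its values, had a median of 3650.5 bases (quartiles 1585 and 7831). The median was 2238 bases over tested loci and 3089 over the loci that met every part but the ratio. A longer locus gives more reads at the same FPKM and so a smaller counting error, and the rule asks the lowest of 3 libraries to exceed the highest of 2; the part of read number in the selection was not tested. The coefficient of variation between postpuberty libraries had a median of 16.3% in members, 23.5% in tested loci and 17.0% in the loci without the ratio.

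Some members sit next to each other in the numbering. StringTie numbers the loci of an assembly in sequence, but whether close numbers here mean close positions is not stated in the sources used. In 86 members the number of another member was within 10, in 4 groups of 3 and 37 pairs. The same count was not made for sets of other listed loci, so no grouping is read from it. The members MSTRG.29550, MSTRG.29551 and MSTRG.29552 have consecutive numbers. Their puberty libraries stood at 0.895 and 0.826, 1.35 and 1.34, and 0.521 and 0.446 FPKM, and their postpuberty libraries at 2.03, 1.85 and 2.38, at 2.13, 2.50 and 2.11, and at 1.47, 1.497 and 1.76 FPKM. MSTRG.178840, MSTRG.178841 and MSTRG.178851 were alike in their puberty means, at 1.36, 1.47 and 1.46 FPKM. Each had a mean under 0.05 FPKM at either young age. After puberty their means were 3.04, 5.22 and 2.96 FPKM, so MSTRG.178841 stood above the others. All 3 rose at puberty (log2 changes of 1.23 to 1.28, limma adjusted p at most 0.000131). MSTRG.154255, MSTRG.154262 and MSTRG.154264 were less alike at the young ages. MSTRG.154262 had a neonatal mean of 0.573 ± 0.254 FPKM (SD, n = 3) and a prepuberty mean of 0.0394 ± 0.0342, whereas MSTRG.154255 and MSTRG.154264 stood at 0.231 and 0.168 in neonatal and 0.166 and 0.154 in prepuberty testes.

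The listed loci next to a member in the numbering, which the rule screened but did not select, had higher postpuberty values more often than other loci did. This is a description without a test. Of 332 tested loci that are no members and are the next listed number to one, at most 10 away, the 3 postpuberty libraries all lay above both puberty libraries in 169 (50.9%), against 33.4% of 10835 other tested MSTRG loci under the same number limit. The median log2 change from puberty to postpuberty was 0.32 in these neighbours and 0.18 in the other loci. By limma, 2 of the neighbours (0.602%) and 0.683% of the other loci rose at this step. Over all tested loci, which include the members, it was 1.26%. From prepuberty to puberty, 28.6% of the neighbours rose by limma and 10.8% fell, against 24.0% and 12.9% of the other loci. The share of loci without overlap was not counted for this earlier step. Whether the difference is particular to the postpuberty step was therefore not tested. Neighbours may share a transcript or reads with the member, which was not tested.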

How the data were processed

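The deposited tables give 1 FPKM value per locus and library, made by the authors; HISAT2 2.1.0 and StringTie 2.1.1 are named per the submitters' processing notes, while build, annotation and counter were not given in the sources used here. The labels list 12 samples, and 11 of them entered the fits. The members, lists and comparisons were chosen with earlier results of these data known. Library totals, reads and implied lengths were recovered from the steps of the FPKM values, within 0.02 reads of whole numbers for 24115 loci. Implied lengths, and the reads per locus with them, can be a fraction of the true ones. Loci of at least 1 FPKM in at least 2 libraries (12954) were fitted as log2(FPKM + 1) with limma 3.58.1 in R 4.3.3, with all 11 libraries, 1 mean per age (7 residual degrees of freedom), a variance trend, two-sided tests and Benjamini-Hochberg adjustment over the 12954 loci. A locus was called at an adjusted p under 0.05 and a change of at least 1. Fold changes on this scale understate the change of low loci. The procedure was also run on simulated data, with changes placed only on loci above the level of most members. That run does not cover the low values of the members.

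Named members are the 6 with the highest postpuberty mean and the 6 with the largest ratio of lowest postpuberty to highest puberty value. The 5 largest called changes in each direction at each tested step and the 3 nearest the ratio limit on each side were named too. So were 3 of the 4 largest groups by identifier, which tie in size, and the 3 with the smallest change at puberty. Others are stated as chosen after their values were seen. Alternatives were another pseudocount (0.1), no filter, 3 other scalings (median of ratios, TPM and quantile), voom, the replicate block, no variance trend, only the libraries compared and leaving out each library.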

Additional observations from a re-analysis of the deposited data

How the results depend on the processing

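The number of members moved with the thresholds (1095 at the lower ratio tried, 152 at a ratio of 2, 199 with a postpuberty floor of 2 FPKM) and with median of ratios scaling (250). Under TPM, 785 loci met the rule, and only 449 of them were members. Without 1 neonatal or prepuberty library the number was 539 to 555. Without 1 puberty or postpuberty library it was 692 to 1223, with all 558 members kept each time. Fewer libraries at these ages make the ratio easier to meet, so the direction of that change was set in advance. The median ratio of postpuberty to puberty was 1.88 under median of ratios scaling. The median change of all tested loci from puberty to postpuberty was 0.18 with the authors' scaling and 0.04 after median of ratios, and from prepuberty to puberty 0.26 and 0.63. Members that rose at puberty numbered 469 with a pseudocount of 0.1, 213 under median of ratios, 485 under TPM and 470 with voom, against 131. Tested loci that rose numbered 5829, 4590, 6140 and 5874 in the same runs, against 3067, so both counts grew. With the pseudocount of 0.1, 1 member fell, as did 3879 tested loci. Members that rose or fell before puberty numbered 5 and 13 with a pseudocount of 0.1, 11 and 3 under TPM and 3 and 14 with voom, against 0. Tested loci that did so numbered 207 and 434, 994 and 98, and 174 and 391, against 107 and 161. Without 1 library, 0 to 1 members fell.

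Over all tested loci, puberty against prepuberty gave 5829 rises and 3879 falls with a pseudocount of 0.1, 6140 and 3334 under TPM, 5874 and 3879 with voom, 4590 and 999 under median of ratios and 2472 and 2943 under quantile normalization, against 3067 and 1681. Prepuberty against neonatal gave 207 and 434 with a pseudocount of 0.1, 994 and 98 under TPM, 174 and 391 with voom, 11 and 8 with only these 2 ages, 48 falls under median of ratios and 64 under quantile normalization, against 107 and 161. Without 1 library the falls ranged from 101 (prepuberty replicate 3) to 246 (neonatal replicate 1). Postpuberty against puberty gave 329 rises with a pseudocount of 0.1, 380 under TPM, 249 with voom, 87 rises and 36 falls under median of ratios, 51 and 41 under quantile normalization and 0 and 0 with only these 2 ages, against 163 and 18; without 1 library, 144 to 448 rises (the latter without puberty replicate 2) and 14 to 34 falls. The causes were not tested.

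Deviations of same-numbered libraries from their age means correlated at -0.12 to 0.05. Deviations within an age of 2 or 3 libraries cancel out, so these values cannot show whether the number marks a shared origin. With the replicate block, 124 members rose at puberty and 0 changed before it, and 3038 and 1734, 102 and 158, and 156 and 15 tested loci rose and fell at the 3 steps in order. No named member called at puberty lost its call under any alternative run. The younger levels rest on a median of 23 reads over 6 libraries, which limits folds against them.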
